A study of Homo sapiens with 16 samples.

Results

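The comparison set C1-sgControl, the C1 line carrying a control guide RNA, against C1 itself, which carries no guide. It used 4 of the 16 libraries of the series, 2 in each group, chosen by the group names in the sample titles, and all 60448 genes of the count files, of which 18285 had enough counts to be tested. Both groups are HMLER, human mammary epithelial cells that were immortalized and transformed in culture with introduced genes, among them TERT and oncogenic HRAS. The labels give both groups the genotype wild type, and the series design describes C1 as a stable epithelial state. The other epithelial groups, used below for reference only, are C1-sgEED-Epi (EED-KO), C1-sgKMT2D-Epi (KMT2D-KO) and C2-Epi (wild type), which the design describes as plastic epithelial states, with 2 libraries each. All were grown in the same mammary epithelial medium with insulin, EGF and hydrocortisone. The labels do not give the sequence or target of the control guide, the nuclease, the selection, the passage number or the day of harvest, nor whether C1-sgControl is a clone or a pool. Nothing in them states that replicates came from separate cultures. The p-values therefore reflect the spread between libraries alone, and that spread may be technical.

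A control guide is meant to carry cells through delivery, selection and expression of the editing machinery without altering a gene under study, so its cells are the usual baseline for cells edited at a chosen gene. Cells moving through the division cycle switch on replication genes before S phase and mitosis genes before division. ATF4 is a transcription factor made when a stress kinase slows translation, for example when amino acids are short or unfolded protein collects in the endoplasmic reticulum, and it switches on genes for amino acid synthesis and uptake. AP-1 and the immediate early genes are induced within a short time of growth factor signalling or stress.

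Total counts were 22980108 and 23208636 in C1 and 24233858 and 23907707 in C1-sgControl, within the range of the series (18872124 to 31950649). Levels are given in CPM, which are counts scaled to the TMM-adjusted size of each library. The labelled cell type was checked on fixed markers. The 5 basal epithelial markers summed to between 12660 and 13760 CPM in all 4 libraries. The epithelial markers CDH1, EPCAM, GRHL2 and ESRP1 summed to 742.9 and 709 CPM in C1 and to 595 and 541 CPM in C1-sgControl. The 4 luminal markers summed to 1174 and 1028 CPM in C1 and to 774 and 891 CPM in C1-sgControl. The 6 mesenchymal markers, which do not include VIM or FN1, summed to at most 6.88 CPM. Endothelial markers summed to at most 2.21 CPM and leukocyte markers to at most 0.509 CPM, with PTPRC at 0 in all 4 libraries. A wider list of 27 mesenchymal genes summed to 17460 and 17110 CPM in C1 and to 27890 and 26640 CPM in C1-sgControl. Replicates correlated across genes with r = 0.996 in C1 and r = 0.990 in C1-sgControl (log2 CPM, 12692 genes averaging 50 counts or more). Over the same genes the log2 difference had an SD of 0.201 between the C1 replicates, 0.322 between the C1-sgControl replicates and 0.766 between the group means. Ribosomal protein transcripts took 5.03% and 5.40% of counts in C1, 6.40% and 7.78% in C1-sgControl and 3.46% to 4.75% in the other 12 libraries.

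Of the 18285 genes tested, 4951 (27.1%) passed the test at an adjusted p under 0.05 and are called here. Of these, 2430 (13.3%) were higher in C1-sgControl and 2521 (13.8%) were lower. Cell cycle and DNA repair genes were lower in cells with the control guide, and genes of the ATF4 response and immediate early genes were higher. In 70.3% of the genes tested the libraries of the groups did not overlap, and this held for all 4951 called genes. For a called gene below, the statement that its groups do not overlap therefore adds nothing to the call. The median log2 difference of all genes was 0.02, where a positive value means higher in C1-sgControl. At a difference of at least 1 on the log2 scale, 947 genes (5.18%) rose and 1499 (8.2%) fell. The number of calls fell to 2247 without C1 replicate 1, to 2496 without C1 replicate 2 and to 2226 without C1-sgControl replicate 2, and was 3538 without C1-sgControl replicate 1.

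**Figure D1:**
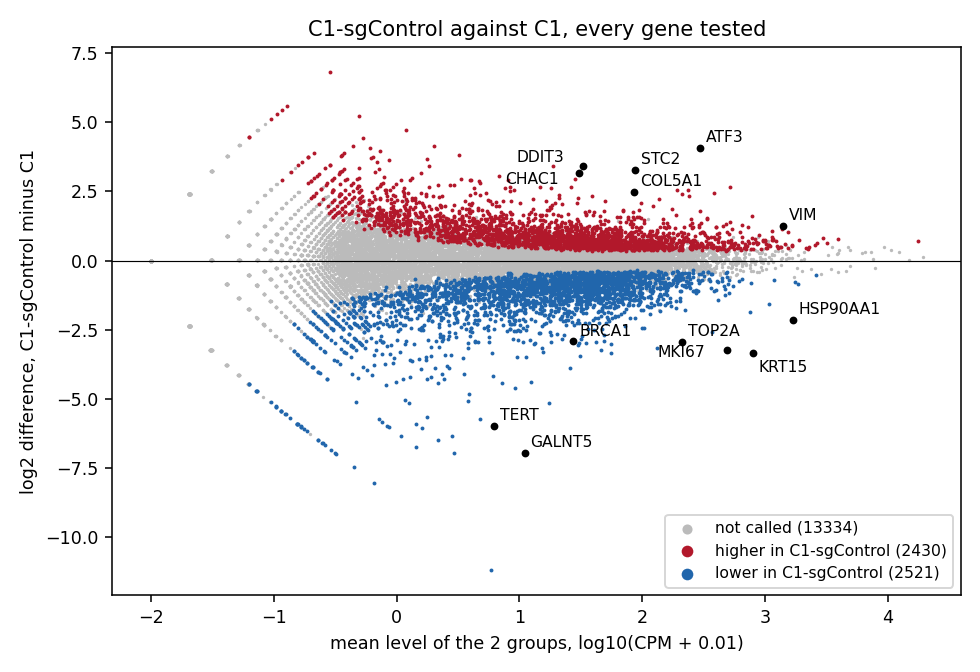
Each point is a gene tested, with its mean level in C1 and C1-sgControl on the horizontal axis (log10 of CPM + 0.01) and its log2 difference on the vertical axis. Of 18285 genes, 2430 were called higher (red) and 2521 lower (blue), and the labelled genes ATF3 and MKI67 lay at log2 differences of 4.06 and -3.22.

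The cell cycle genes fell almost as a whole. Of 34 members of a list of replication and mitosis genes, 32 fell and 0 rose, with a median log2 difference of -1.48 against 0.02 for all genes. MKI67, which encodes the Ki-67 antigen of cycling cells (ENSG00000148773, GRCh38 chromosome 10, 128096659 to 128126385), stood at 952 and 829.5 CPM in the C1 libraries and at 116 and 75.4 CPM in the C1-sgControl libraries. Both C1-sgControl libraries were far below both C1 libraries, a 9.30-fold lower mean (log2 -3.22 ± 0.33 SE, adjusted p = 2.6e-05, edgeR quasi-likelihood test). In bulk RNA, fewer cells that carry a transcript and less of it per cell cannot be told apart.

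TOP2A, the topoisomerase that untangles chromosomes, stood at 382 and 360.1 CPM in C1 and at 53.5 and 43.4 CPM in C1-sgControl (log2 -2.94 ± 0.41, adjusted p = 0.00027). KIF11, a motor of the mitotic spindle, stood at 79.5 and 69.5 CPM against 11.5 and 7.75 CPM (log2 -2.96 ± 0.35, adjusted p = 8.7e-05). E2F2, a transcription factor of S phase genes, was scarce in both groups, with 3.14 and 3.11 CPM against 0.378 and 0.471 CPM (log2 -2.87 ± 0.59, adjusted p = 0.0034). None of these genes overlapped between the groups. The replication fork clamp PCNA moved less, from 271 and 232 CPM to 149 and 158 CPM (log2 -0.71), and TYMS, the enzyme that makes thymidylate, fell by 0.43 on the log2 scale. The 2 members that did not pass were the cyclin gene CCND1, at 258 and 255 CPM against 244 and 248 CPM (adjusted p = 0.79), and the licensing factor gene CDT1, at 21.3 and 18.98 CPM against 19.2 and 21.2 CPM (adjusted p = 1). PCNA, TYMS, CCND1 and CDT1 were chosen after their values were seen. With each library left out in turn, between 25 and 30 of the 34 fell. With GC content and gene length corrected, 32 did.

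The promoters of the most lowered cell cycle genes are shown because they carry a sequence known from genes of G2 and mitosis, the cell cycle genes homology region with the core TTTGAA. The lines give windows of the RefSeq promoters (GRCh38.p14, read 5′ to 3′ on the strand of the gene), with TTTGAA or its reverse complement TTCAAA in capitals. The MKI67 window is chr10:128126435-128126500 (minus strand), the KIF11 window is chr10:92593072-92593129 (plus strand), and the TOP2A window is chr17:40418012-40418077 (minus strand).
MKI67: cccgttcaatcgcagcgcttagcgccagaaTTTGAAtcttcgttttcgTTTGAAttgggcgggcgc
KIF11: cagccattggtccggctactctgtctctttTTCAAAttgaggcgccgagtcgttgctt
TOP2A: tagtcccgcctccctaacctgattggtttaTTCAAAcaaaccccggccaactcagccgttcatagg
Both strands of the 250 bases before the start were searched. TTTGAA was found in 10 of the 27 cell cycle genes with a promoter in the table (37.0%) and in 13.6% of all 27305 promoters. CCAAT, the box bound by NF-Y, was found in 20 of the 27 (74.1%) and in 33.0% of all promoters. It was also found in 15 of 28 promoters of the ATF4 response (53.6%), a list that rose. The shares were 37.5% of 16 immediate early and 30.2% of 63 ribosomal protein promoters. The letters of these motifs do not contain each other. A match is a description of the sequence and shows no binding.

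DNA repair genes fell too: 15 of 22 members fell and 0 rose (median log2 -1.06). BRCA1, which acts in repair by homologous recombination, stood at 52.0 and 44.8 CPM in C1 and at 6.59 and 6.17 CPM in C1-sgControl (log2 -2.92 ± 0.37, adjusted p = 0.00013). Its partner BRCA2 stood at 16 and 15.02 CPM against 2.48 and 1.84 CPM (log2 -2.84), and POLQ, the polymerase of end joining guided by microhomology, at 24.0 and 23.2 CPM against 3.53 and 2.44 CPM (log2 -2.98). In each of these 3 genes both C1-sgControl libraries were below both C1 libraries. With the correction for GC content and length, 15 of the 22 still fell and the median was -0.82. Genes of DNA methylation fell in 5 of 7 cases. TET2, an enzyme that oxidizes methylcytosine, stood at 37.6 and 41.0 CPM against 11.1 and 6.55 CPM (log2 -2.15, adjusted p = 0.0023), and the de novo methyltransferase gene DNMT3B at 10.8 and 9.17 CPM against 3.65 and 3.26 CPM (log2 -1.53). The member that rose was DNMT3A (log2 0.69), which was named after its value was seen and was not called without C1 replicate 1, when 0 members rose.

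Among 8 genes of CDK inhibitors and related phosphatases, 2 rose and 3 fell, but without C1 replicate 1 or C1 replicate 2 these were 0 and 2, without C1-sgControl replicate 1 0 and 1, and without C1-sgControl replicate 2 1 and 2. In the main fit the called share of these 8 genes was 62.5%, against 27.1% of all genes. CDKN3, a phosphatase gene that peaks in dividing cells, fell from 49.8 and 44.4 CPM to 21.7 and 21.6 CPM (log2 -1.12, adjusted p = 0.0017). CDKN1A, the p21 inhibitor induced by p53, was higher in both C1-sgControl libraries, with 1203 and 1053 CPM against 626 and 633 CPM (log2 0.84 ± 0.32), but did not pass (adjusted p = 0.065). It passed with only the 10 epithelial libraries (adjusted p = 8.96e-05), with only the 4 compared libraries (0.000578), without the filter (9.9e-06) and with upper-quartile scaling (0.0483). Of 34 genes activated by p53, 13 rose and 1 fell, with a median of 0.48 and a called share of 41.2%. They included TP53I3, from 82.2 and 92.1 CPM to 171 and 184 CPM (log2 1.03, adjusted p = 0.00063), and GADD45A, a growth arrest gene that ATF4 also activates, from 91.4 and 97.0 CPM to 242 and 189.5 CPM (log2 1.19, adjusted p = 0.001). MDM2, the p53 ubiquitin ligase and a main target of p53, did not pass, with 643 and 738 CPM in C1 and 787 and 506 CPM in C1-sgControl (adjusted p = 0.94). Its 2 C1-sgControl libraries lay on either side of the C1 libraries. The count of 13 fell to 4 without C1 replicate 1, to 5 without C1 replicate 2 and to 7 without either C1-sgControl replicate. It was 21 with only the 10 epithelial libraries and also with only the 4 compared libraries. Over all genes those fits called 7118 of 17098 and 7281 of 15702, against 4951 of 18285 in the main fit.

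**Figure D2:**
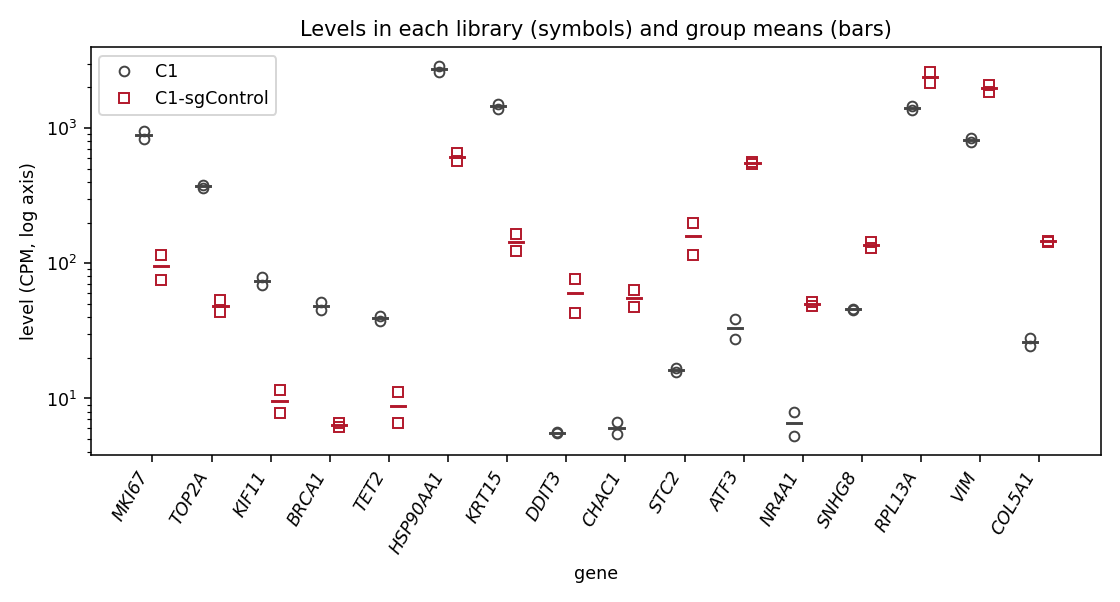
Levels of 16 genes in the 2 C1 libraries (circles) and the 2 C1-sgControl libraries (squares), in CPM on a log axis, with bars at the group means. No gene shown overlaps between the groups, and MKI67 falls from 952 and 829.5 CPM to 116 and 75.4 CPM.

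The ATF4 response moved the other way. Of 34 members tested, 29 rose and 0 fell, with a median log2 difference of 1.20 against 0.02 for all genes. ATF4 itself rose from 417 and 407.5 CPM to 784 and 888 CPM (log2 1.02 ± 0.13, adjusted p = 0.00011). DDIT3, which encodes the stress factor CHOP (ENSG00000175197, GRCh38 chromosome 12, 57516588 to 57521737), stood at 5.52 and 5.69 CPM in C1 and at 76.9 and 43.1 CPM in C1-sgControl (log2 3.42 ± 0.41, adjusted p = 9.2e-05). The C1-sgControl replicates differed from each other, yet the lower of them was far above both C1 libraries.

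CHAC1, an enzyme that degrades glutathione, rose from 6.71 and 5.48 CPM to 63.3 and 47.3 CPM (log2 3.18 ± 0.28, adjusted p = 7.1e-06). STC2, a secreted glycoprotein induced by stress, rose from 15.7 and 16.8 CPM to 199.8 and 116 CPM (log2 3.28 ± 0.41, adjusted p = 0.00013). CTH, which makes cysteine from cystathionine, rose from 5.26 and 4.75 CPM to 37.5 and 24.3 CPM (log2 2.63 ± 0.25, adjusted p = 1.2e-05). In each of these 3 genes the groups did not overlap. The asparagine synthetase gene ASNS rose from 82.9 and 74.1 CPM to 412 and 384 CPM (log2 2.34), and TRIB3, a pseudokinase that feeds back on ATF4, from 124 and 109.9 CPM to 750.1 and 538 CPM (log2 2.46). SLC7A11, the cystine transporter, did not pass, with 59.0 and 65.3 CPM in C1 and 82.2 and 43.9 CPM in C1-sgControl. ATF4, ASNS, TRIB3 and SLC7A11 were chosen after their values were seen. With each library left out in turn, between 23 and 29 of the 34 rose, and 28 rose with the correction for GC content and length.

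Of the 34 members, 28 had a promoter in the RefSeq table, and 3 of these (10.7%) held TGATGNAA, the core of the C/EBP-ATF response element to which ATF4 binds, on either strand of the 250 bases before the start. The motif was found in 3.19% of all 27305 promoters. The 3 promoters are shown (GRCh38.p14, 5′ to 3′ on the strand of the gene) with the motif or its reverse complement in capitals. The windows are chr7:97872439-97872506 (minus strand) for ASNS, chr15:40953232-40953299 (plus strand) for CHAC1 and chr16:70289656-70289723 (minus strand) for AARS, the alanyl-tRNA synthetase gene, which is named for this motif and rose by a log2 difference of 1.34.
ASNS: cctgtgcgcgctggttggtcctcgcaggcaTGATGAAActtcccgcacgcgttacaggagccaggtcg
CHAC1: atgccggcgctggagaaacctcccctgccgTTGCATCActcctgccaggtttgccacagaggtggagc
AARS: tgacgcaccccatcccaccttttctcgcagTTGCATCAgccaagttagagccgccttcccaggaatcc
The other 25 promoters do not hold these letters in this window.

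Of 20 genes of the unfolded protein response, 6 rose and 0 fell (median 0.17), a called share of 30% against 27.1% of all genes. The median was 0.016 without C1-sgControl replicate 1 and 0.27 without C1-sgControl replicate 2. HERPUD1, which serves the removal of misfolded proteins, rose from 38.3 and 35.5 CPM to 202 and 113 CPM (log2 2.10, adjusted p = 0.00028), and HSPA5, the chaperone BiP of the endoplasmic reticulum, from 767 and 700.5 CPM to 1836 and 1234 CPM (log2 1.06, adjusted p = 0.00048). XBP1 also rose (log2 1.24), which encodes a transcription factor of this response. Of 16 cytosolic heat shock genes, 5 fell, 1 rose and 10 did not pass, a called share of 37.5% against 27.1% of all genes. HSP90AA1, the inducible HSP90 chaperone (ENSG00000080824, GRCh38 chromosome 14, 102080738 to 102139699), stood at 2885 and 2579 CPM in C1 and at 655 and 574 CPM in C1-sgControl (log2 -2.15 ± 0.23, adjusted p = 2.9e-05). Its co-chaperone gene HSPH1 stood at 181 and 149 CPM against 60.2 and 45.8 CPM (log2 -1.64, adjusted p = 0.00014). Both genes were lower in each C1-sgControl library than in each C1 library. Without C1 replicate 1, 3 heat shock genes fell, and with only the 10 epithelial libraries 9 did. The member that rose was HSF1 (log2 0.54), named after its value was seen, and with each library left out in turn 0 members rose.

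Immediate early genes were higher: 16 of 20 members rose and 0 fell, with a median log2 difference of 1.36. ATF3, a stress-induced factor that ATF4 also activates (ENSG00000162772, GRCh38 chromosome 1, 212565334 to 212620777), stood at 27.5 and 38.6 CPM in C1 and at 565 and 539.5 CPM in C1-sgControl (log2 4.06 ± 0.49, adjusted p = 9.2e-05). This was a 16.7-fold higher mean. NR4A1, an orphan nuclear receptor induced by growth factors, stood at 5.26 and 7.90 CPM against 51.9 and 48.7 CPM (log2 2.93, adjusted p = 0.0021). EGR2, a zinc finger factor of the same early wave, stood at 0.679 and 1.19 CPM against 8.31 and 5.87 CPM (log2 2.92), and KLF2 at 0.297 and 0.123 CPM against 3.61 and 3.94 CPM (log2 4.14), from 10 counts over both C1 libraries. All 4 genes were higher in each C1-sgControl library. With each library left out in turn, between 13 and 15 of the 20 rose. Feedback genes of the MAPK pathway rose in 10 of 21 cases and fell in 2, a called share of 57.1% against 27.1% of all genes. DUSP5, a phosphatase that inactivates ERK, rose from 74.0 and 78.2 CPM to 308 and 243 CPM (log2 1.86, adjusted p = 5.2e-05), and DUSP1 from 135 and 149 CPM to 329.9 and 363 CPM (log2 1.29). The 10 became 5 without C1 replicate 1, 3 without C1 replicate 2 and 3 without C1-sgControl replicate 1.

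Ribosomal protein genes were higher by a smaller margin. Of 79 ribosomal protein genes, 59 rose and 1 fell, with a median of 0.55. RPL13A, of the large subunit, rose from 1354 and 1459 CPM to 2164 and 2591 CPM (log2 0.76 ± 0.14, adjusted p = 0.002). The summed level of the 79 genes was 49040 and 51290 CPM in C1 and 65050 and 79700 CPM in C1-sgControl. The groups did not overlap, but the C1-sgControl replicates differed from each other by more than the C1 replicates. The count of 59 fell to 4 without C1 replicate 1, to 17 without C1 replicate 2 and to 2 without C1-sgControl replicate 2, and stayed at 59 without C1-sgControl replicate 1. With GC content and length corrected, 38 rose. Of 25 genes of ribosome biogenesis, 4 rose and 1 fell (median 0.20), a called share of 20% against 27.1% of all genes. Ribosomal protein genes have many processed pseudogenes that can share reads with them. The member that fell, RPS10 (log2 -0.66), was named after its value was seen, overlaps a readthrough gene and was not called with any of the 4 libraries left out.

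Genes that host small nucleolar RNAs in their introns rose in 13 of 16 cases and fell in 0 (median 0.97). SNHG8 stood at 45.0 and 46.2 CPM in C1 and at 129 and 143 CPM in C1-sgControl (log2 1.57 ± 0.15, adjusted p = 1.2e-05). SNHG6 stood at 22.4 and 22.01 CPM against 66.3 and 69.7 CPM (log2 1.62, adjusted p = 0.0003). Replicates of both genes lay close together and the groups far apart. The 13 became 8 without C1 replicate 1, 6 without C1 replicate 2, 10 without C1-sgControl replicate 1 and 9 without C1-sgControl replicate 2. Of 19 other genes whose transcripts carry a terminal oligopyrimidine tract, 6 rose and 1 fell. Their called share was 36.8%, against 27.1% of all genes. TPT1, which encodes the growth-linked protein TCTP, rose from 2139 and 2167 CPM to 3548 and 3964 CPM (log2 0.80, adjusted p = 0.0012). The 6 became 1 without C1 replicate 1, 1 without C1 replicate 2 and 1 without C1-sgControl replicate 2.

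**Figure D3:**
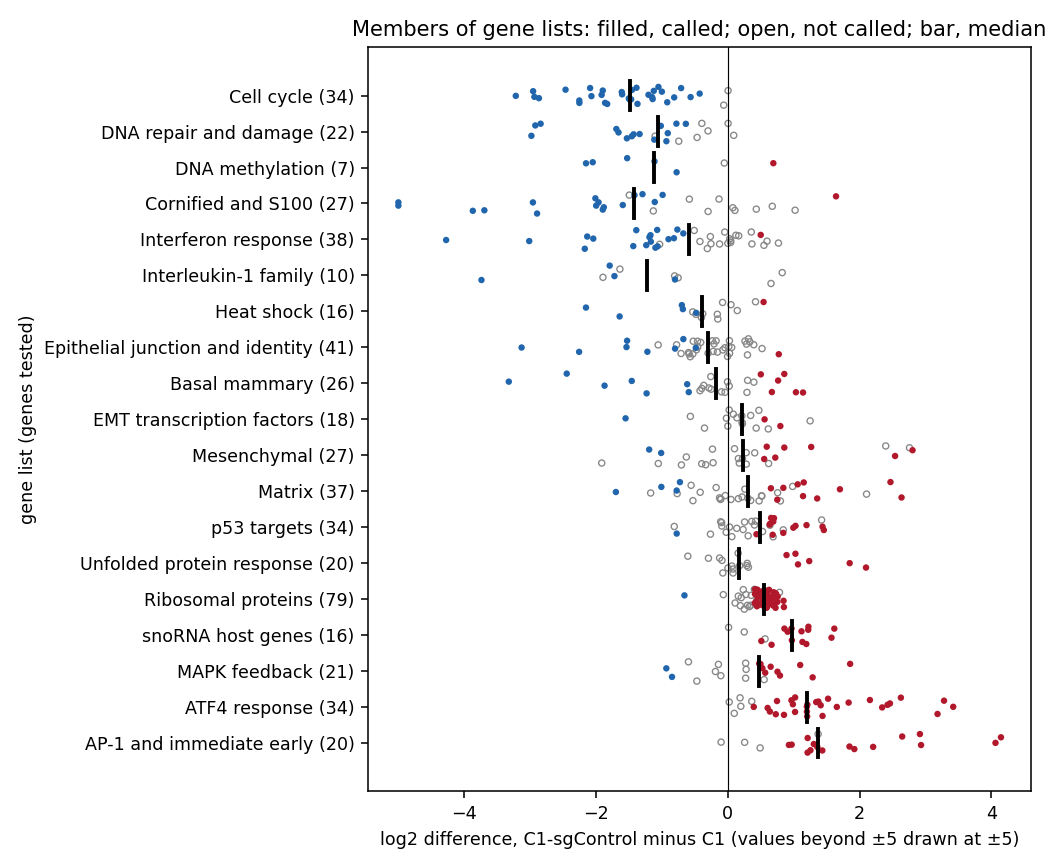
Log2 difference of each tested member of 19 gene lists, with called members filled, members that were not called open and a bar at the median of each list. Cell cycle lies lowest among the lists with a median of -1.48, and the ATF4 response and the AP-1 and immediate early list lie highest with medians of 1.20 and 1.36.

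Of 41 genes of epithelial junctions and identity, 8 fell and 1 rose, with a median of -0.30. The called share was 22%, near the 27.1% of all genes. The fallen members included epithelial transcription factors. EHF stood at 3.56 and 4.296 CPM in C1 and at 0.546 and 0.343 CPM in C1-sgControl (log2 -3.13, adjusted p = 0.00018), GRHL1 at 8.28 and 5.73 CPM against 1.80 and 1.11 CPM (log2 -2.26), and GRHL3 at 22.6 and 21.4 CPM against 7.81 and 7.33 CPM (log2 -1.54). Each was lower in both C1-sgControl libraries. CDH1, which encodes E-cadherin, did not pass, with 395 and 377 CPM against 294 and 267 CPM (log2 -0.46 ± 0.23, adjusted p = 0.15). It passed with only the 10 epithelial libraries (adjusted p = 0.00238), with only the 4 compared libraries (0.00673), without the filter (0.0495), with the GC and length correction (0.0391) and by DESeq2 (0.00174). EPCAM, an epithelial adhesion gene, fell from 97.4 and 85.8 CPM to 65.6 and 65.2 CPM (log2 -0.49, adjusted p = 0.039) but was not called with any of the 4 libraries left out (0.0804 to 0.217), with upper-quartile scaling (0.0544) or without the filter (0.0573). With only the 10 epithelial libraries fitted, 18 of the 41 fell and 4 rose. With only the 4 compared libraries 20 fell and 4 rose, and with the GC and length correction 13 fell and 1 rose. Over all genes those fits called 7118 of 17098, 7281 of 15702 and 5779 of 18285.

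The basal list split, with 6 of 26 members higher and 7 lower, a called share of 50%. KRT15, a keratin of basal cells (ENSG00000171346, GRCh38 chromosome 17, 41513743 to 41522529), stood at 1388 and 1501 CPM in C1 and at 123 and 165 CPM in C1-sgControl (log2 -3.32 ± 0.20, adjusted p = 3.8e-07). KRT6B, whose transcript shares sequence with its close copies KRT6A and KRT6C, stood at 189.6 and 161 CPM against 31.1 and 33.3 CPM (log2 -2.44). The main basal keratins did not pass: KRT5 stood at 8501 and 8643 CPM against 6646 and 7741 CPM (adjusted p = 0.34), and KRT14 at 1832 and 1903 CPM against 2083 and 2516 CPM (adjusted p = 0.28). Among the risers was LAMB3, a chain of the laminin of the basement membrane, from 1018 and 998 CPM to 2232 and 1893 CPM (log2 1.03, adjusted p = 0.00079), which was named after its value was seen. The counts were 2 higher and 3 lower without C1 replicate 1, without C1 replicate 2 or without C1-sgControl replicate 2, and 4 higher and 4 lower without C1-sgControl replicate 1. Of 18 luminal genes, 4 fell and 1 rose, a called share of 27.8% against 27.1% of all genes. KRT8 fell from 642 and 609 CPM to 358 and 412 CPM (log2 -0.70, adjusted p = 0.0025). Without C1 replicate 1, 2 luminal genes fell.

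Genes of the cornified layer and S100 genes fell in 16 of 27 cases and rose in 1 (median -1.42). DSG1, the desmoglein of upper epidermal layers, stood at 6.03 and 4.01 CPM against 0.588 and 0.0857 CPM (log2 -3.87, adjusted p = 0.0012). S100A8, which encodes a subunit of calprotectin, stood at 36.9 and 41.8 CPM against 7.38 and 12.2 CPM (log2 -2.01, adjusted p = 0.00075). The serpin genes SERPINB3 (log2 -2.90) and SERPINB13 (log2 -2.96) fell as well, and SERPINB3 shares sequence with its close copy SERPINB4. Between 11 and 13 of the 27 fell with each library left out in turn. The member that rose, KRT1 (log2 1.64), was named after its value was seen, and 0 members rose without C1 replicate 1, without C1 replicate 2 or without C1-sgControl replicate 2.

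Mesenchymal genes rose in 7 of 27 cases and fell in 2, with a median of 0.22. The called share was 33.3%, against 27.1% of all genes. VIM, which encodes the intermediate filament vimentin (ENSG00000026025, GRCh38 chromosome 10, 17228259 to 17237593), stood at 849 and 792 CPM in C1 and at 1842 and 2100 CPM in C1-sgControl (log2 1.26 ± 0.14, adjusted p = 5e-05). FN1, fibronectin, stood at 13230 and 13100 CPM against 22460 and 20900 CPM (log2 0.72, adjusted p = 0.00082). Both were higher in each C1-sgControl library. TNC, the matrix protein tenascin, fell from 75.0 and 70.5 CPM to 34.6 and 29 CPM (log2 -1.19, adjusted p = 0.00029). CDH2, the N-cadherin gene, did not pass, with 2.50 and 1.39 CPM against 1.09 and 0.771 CPM (adjusted p = 0.13), though it was lower and passed with only the 10 epithelial libraries (0.0284), with only the 4 compared libraries (0.0326), without the filter (0.00265) and by DESeq2 (0.0407). The 7 became 2 without C1 replicate 1, 2 without C1 replicate 2, 4 without C1-sgControl replicate 1 and 4 without C1-sgControl replicate 2.

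Of 18 transcription factors that drive epithelial-mesenchymal transition, 2 rose and 1 fell, a called share of 16.7% against 27.1% of all genes. ZEB1 was near 0 in all 4 libraries (0.0424 and 0.286 CPM against 0.504 and 0.3 CPM, adjusted p = 0.48), and SNAI2 did not pass, with 152 and 150.2 CPM against 193 and 158 CPM (adjusted p = 0.62). TCF4 fell from 11.2 and 12.6 CPM to 4.83 and 3.30 CPM (log2 -1.55, adjusted p = 0.00031). SOX9, a factor of mammary progenitors, rose from 67.3 and 70.2 CPM to 124 and 115 CPM (log2 0.80, adjusted p = 0.0062), and was not called without C1 replicate 1 (0.0595). The other riser, TWIST2 (log2 0.56, adjusted p = 0.035), was not called without C1 replicate 1 (0.111), without C1 replicate 2 (0.185) or without C1-sgControl replicate 2 (0.289). The surface marker genes CD44 (1534 and 1466 CPM against 1565 and 1653 CPM, adjusted p = 0.63) and CD24 (205 and 186 CPM against 176 and 171 CPM, adjusted p = 0.51) did not pass.

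Matrix genes rose in 10 of 37 cases and fell in 4 (median 0.30), a called share of 37.8% against 27.1% of all genes. COL5A1, a chain of fibrillar collagen V, stood at 24.5 and 28.1 CPM in C1 and at 147 and 144 CPM in C1-sgControl (log2 2.47 ± 0.17, adjusted p = 1.5e-06). BGN, the proteoglycan biglycan, rose from 5.05 and 6.01 CPM to 14.4 and 13.9 CPM (log2 1.36, adjusted p = 0.0003). In both genes the C1-sgControl libraries lay close together and well above C1. The 10 became 5 without C1 replicate 1 and 6 without C1 replicate 2. Of 34 genes of TGF-beta and BMP signalling, 7 rose and 1 fell, a called share of 23.5% against 27.1% of all genes. Among the risers were 2 inhibitors of the pathway, PMEPA1 from 177 and 179 CPM to 506 and 495 CPM (log2 1.49, adjusted p = 1.1e-05) and SMAD7 from 11.6 and 13.0 CPM to 31.2 and 26.4 CPM (log2 1.23, adjusted p = 0.00093). Of these 34, 12 rose and 3 fell once GC content and length were corrected.

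Of 38 interferon-induced genes, 18 fell, 1 rose and 19 did not pass, with a median of -0.59. SAMD9, a factor that restricts viruses, stood at 23.0 and 24.1 CPM in C1 and at 2.73 and 3.08 CPM in C1-sgControl (log2 -3.01 ± 0.29, adjusted p = 1.2e-05). Its neighbour and relative SAMD9L stood at 3.40 and 3.36 CPM against 0.168 and 0.171 CPM (log2 -4.28, adjusted p = 0.00077), and IFIT3 at 3.44 and 2.90 CPM against 0.629 and 0.771 CPM (log2 -2.17, adjusted p = 4e-05). All 3 genes were lower in both C1-sgControl libraries. With each library left out in turn, between 14 and 15 of the 38 fell. The member that rose was IFITM3 (log2 0.50), named after its value was seen, and 0 members rose without C1 replicate 2 or without C1-sgControl replicate 2. Of 12 sensors of foreign nucleic acid and their partners, 5 fell, 0 rose and 7 did not pass. Their called share was 41.7%, against 27.1% of all genes. DDX58, the RIG-I sensor, fell from 14.1 and 11.6 CPM to 5.96 and 3.81 CPM (log2 -1.39, adjusted p = 0.0012). The 5 became 2 without C1 replicate 1, 3 without C1 replicate 2 and 1 without C1-sgControl replicate 2.

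Of 10 genes of the interleukin-1 family, 4 fell and 0 rose, a called share of 40% against 27.1% of all genes. The receptor gene IL1R1 fell from 15.4 and 16.7 CPM to 4.78 and 4.50 CPM (log2 -1.79, adjusted p = 9.6e-06). Of 32 NF-kB targets and chemokines, 4 fell and 2 rose, a called share of 18.8% against 27.1% of all genes. Their median was -0.36, and 0.0074 once GC content and length were corrected. The called members included CSF3, the granulocyte growth factor, at 5.18 and 4.05 CPM against 0.252 and 0.214 CPM (log2 -4.28, adjusted p = 0.00015) and IL11 at 6.41 and 7.61 CPM against 22.3 and 21.97 CPM (log2 1.66, adjusted p = 0.00041). With only the 10 epithelial libraries fitted, 12 of 31 members tested fell and 9 rose. With only the 4 compared libraries 12 of 30 fell and 10 rose. Over all genes these fits called 7118 of 17098 and 7281 of 15702, against 4951 of 18285 in the main fit. In 3 of the 4 fits with a library left out, all but that without C1-sgControl replicate 2, 1 member rose. Antigen presentation genes fell in 3 of 23 cases and rose in 2, a called share of 21.7% against 27.1% of all genes. HLA-E, a class I molecule read by natural killer cells, rose from 133 and 141 CPM to 259 and 296.5 CPM (log2 1.02, adjusted p = 0.00029). With each of the 4 libraries left out in turn, 1 member of that list rose.

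Among the largest differences of all genes, the lowest included several genes of cell surface and secreted proteins. CNTN3, a neural adhesion molecule, stood at 10.8 and 12.5 CPM in C1 and had 0 counts in both C1-sgControl libraries, at least 91.8-fold lower against a floor of 3 counts per library. GALNT5, an enzyme that starts O-linked glycosylation, stood at 20.3 and 23.4 CPM against 0.168 and 0.171 CPM (log2 -6.97 ± 0.35, adjusted p = 7.6e-08), with 8 counts over both C1-sgControl libraries. SLITRK5, a transmembrane protein of neurons, stood at 10.1 and 8.47 CPM against 0.126 and 0.214 CPM (log2 -5.74), and ITM2A at 33.7 and 33.6 CPM against 0.965 and 0.942 CPM (log2 -5.13). MME, the peptidase neprilysin (CD10) of basal and myoepithelial cells, stood at 18.2 and 17.3 CPM against 0.923 and 0.514 CPM (log2 -4.61, adjusted p = 0.0012). The same rule also took CGREF1 (log2 -6.95), GREB1L (log2 -6.34), LINC00665 (log2 -5.09) and SVEP1 (log2 -4.84).

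TERT, the catalytic subunit of telomerase (ENSG00000164362, GRCh38 chromosome 5, 1253147 to 1295069), was also among the lowest 10. It stood at 12.1 and 12.4 CPM in C1 and at 0.0839 and 0.3 CPM in C1-sgControl (log2 -5.97 ± 0.50, adjusted p = 5.4e-06), which was 588 counts over the C1 libraries and 9 over the C1-sgControl libraries. Both C1-sgControl libraries were close to 0. The means in the other epithelial groups were 3.27 ± 0.163 (SD, n = 2) in C1-sgEED-Epi, 5.04 ± 0.486 in C1-sgKMT2D-Epi and 1.02 ± 0.351 in C2-Epi. TERT and oncogenic HRAS are among the genes introduced to make HMLER, and gene counts do not tell an introduced copy from the cell's own gene. HRAS did not pass, with 84.1 and 82.4 CPM against 67.6 and 83.1 CPM (log2 -0.14, adjusted p = 0.57), but passed in the same direction with the GC and length correction (adjusted p = 0.0181).

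The highest 10 held ATF3, DDIT3, STC2, CHAC1, NR4A1 and EGR2, described above, and 4 others. ADM2, a peptide of the calcitonin family, stood at 2.84 and 3.48 CPM in C1 and at 37.2 and 30.8 CPM in C1-sgControl (log2 3.42 ± 0.23, adjusted p = 1.3e-06). KLF15, a zinc finger factor that glucocorticoids induce, stood at 0.339 and 0.491 CPM against 7.30 and 4.63 CPM (log2 3.83, adjusted p = 0.00027). MYADM stood at 1.40 and 1.51 CPM against 11.7 and 12.6 CPM (log2 3.05), and the noncoding LINC02303 at 0.424 and 1.06 CPM against 4.78 and 6.94 CPM (log2 2.96). In all of them each C1-sgControl library was above each C1 library.

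EED and KMT2D, the genes targeted in the other edited groups, did not pass between C1-sgControl and C1. EED, a core subunit of the PRC2 complex that methylates histone H3, stood at 28.1 and 26.5 CPM against 26.6 and 21.6 CPM (log2 -0.18, adjusted p = 0.4). KMT2D, an activating histone methyltransferase of the COMPASS family, stood at 80.2 and 92.0 CPM against 89.9 and 70.9 CPM (log2 -0.10, adjusted p = 0.72). The groups overlapped in each gene. Against a called share of 27.1% over all genes, the 15 COMPASS genes had 13.3%. The PRC2 list had 50%, with 3 of 12 genes rising and 3 falling. EZH2, its catalytic subunit in dividing cells, fell from 27.9 and 28.8 CPM to 17.5 and 13.8 CPM (log2 -0.86, adjusted p = 0.0015), MTF2, an accessory subunit, from 34.8 and 34.4 CPM to 17.0 and 13.4 CPM (log2 -1.19, adjusted p = 0.00054), and PHF1, another accessory subunit, rose from 17.0 and 15.3 CPM to 38.7 and 39.0 CPM (log2 1.27, adjusted p = 0.00038). Of the 15 COMPASS genes, 2 rose and 0 fell, and 0 rose with any of the 4 libraries left out.

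The levels of these lists in the other epithelial groups show where C1 and C1-sgControl each stood. The comparisons below share their C1 or C1-sgControl libraries, so they are set side by side only. Between C1 and C1-sgControl, 4951 genes (27.1%) were called. Against C1, 4601 genes (25.2%) were called in C1-sgEED-Epi, 7100 (38.8%) in C1-sgKMT2D-Epi and 5620 (30.7%) in C2-Epi. Against C1-sgControl, 8930 (48.8%), 10245 (56%) and 9176 (50.2%) were called in the same groups. The SD over genes of the log2 difference in means was 0.823 between C1 and C1-sgEED-Epi and 1.17 between C1-sgControl and C1-sgEED-Epi.

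The summed cell cycle list stood at 4995 and 4308 CPM in C1, at 1637 and 1714 CPM in C1-sgControl and between 4041 and 5708 CPM in the other 6 epithelial libraries. Both C1-sgControl libraries were below the other 8. Its members had a median log2 difference of 0.28 in C1-sgEED-Epi against C1 (9 of 34 higher, 0 lower) and of 1.77 against C1-sgControl (33 higher, 0 lower). The same values for C1-sgKMT2D-Epi were 0.26 (9 higher, 1 lower) and 1.64 (32 higher, 0 lower). MKI67 had a mean of 632 ± 377 CPM (SD, n = 2) in C1-sgEED-Epi, where the replicates differed widely, of 1029 ± 66.8 CPM in C1-sgKMT2D-Epi and of 451 ± 24.0 CPM in C2-Epi.

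The summed ATF4 list stood at 5107 and 4780 CPM in C1, at 11640 and 9790 CPM in C1-sgControl and between 5292 and 6749 CPM in the other 6 epithelial libraries, so C1-sgControl was the highest group. Against C1, 5 of 34 members were higher and 4 lower in C1-sgEED-Epi (median -0.0037), and against C1-sgControl 1 was higher and 28 lower (median -1.08). In C1-sgKMT2D-Epi 5 were higher and 8 lower against C1 (median -0.10), and 0 higher and 26 lower against C1-sgControl (median -1.21). STC2 departed from the list, with a mean of 172 ± 12.8 CPM in C1-sgKMT2D-Epi. Immediate early genes were intermediate in some groups, with sums of 1738 and 1825 CPM in C1, 4917 and 4567 CPM in C1-sgControl and 1643 to 2912 CPM in the other 6 libraries, and NR4A1 had a mean of 54.4 ± 4.73 CPM in C2-Epi. Ribosomal protein genes summed to between 37650 and 45130 CPM in the other 6 epithelial libraries, below the C1 libraries (49040 and 51290 CPM) and the C1-sgControl libraries (65050 and 79700 CPM).

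**Figure D4:**
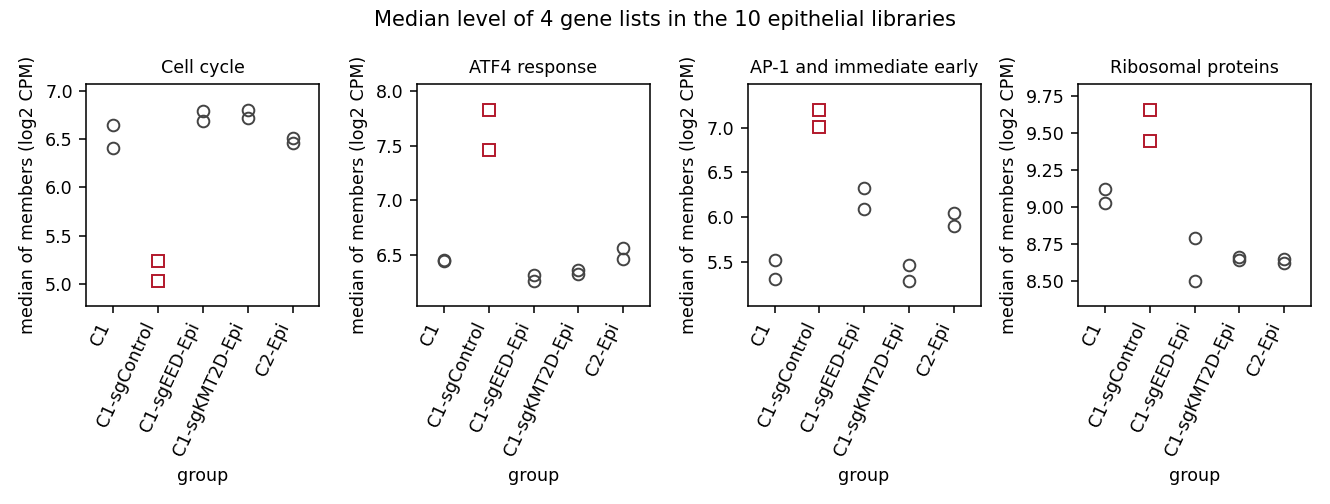
Median level of the members of 4 gene lists (log2 CPM, vertical axes that do not start at 0) in each of the 10 epithelial libraries, by group, with C1-sgControl as squares. In the cell cycle panel both C1-sgControl libraries lie lowest, and in the other 3 panels both lie highest.

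Some lists that were lower in C1-sgControl were also lower than C1 in other groups. Medians against C1 are given in the order C1-sgControl, C1-sgEED-Epi, C1-sgKMT2D-Epi and C2-Epi. They were -1.42, -2.01, -4.065 and -3.47 for cornified and S100 genes, and -0.30, -0.54, -0.96 and -0.74 for genes of epithelial junctions and identity. For interferon-induced genes they were -0.59, -0.044, -0.81 and -0.55. KRT15 differed from the cell cycle, ATF4, immediate early and ribosomal protein lists in that C1 stood apart. Its level was 1388 and 1501 CPM in C1 and 123 and 165 CPM in C1-sgControl, and its mean was 416 ± 63.5 CPM in C1-sgEED-Epi, 79.3 ± 6.33 CPM in C1-sgKMT2D-Epi and 55.8 ± 0.624 CPM in C2-Epi (SD, n = 2), so C1 was the highest group. KRT6B followed the same order of high and low groups, with means of 79.5 ± 12.2, 7.67 ± 0.0228 and 2.11 ± 0.435 CPM in those 3 groups. Among the epithelial groups COL5A1 was highest in C1-sgControl, with 24.5 and 28.1 CPM in C1, 147 and 144 CPM in C1-sgControl and means of at most 2.93 ± 0.0293 CPM in the other 3 groups.

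The differences moved with the base composition and length of the genes. Genes averaging 50 counts or more, 12660 in all, were split into 5 equal groups. The group of lowest GC content (median 38.4%) had a median log2 difference of -0.56, and the group of highest GC content one of 0.19. The group of shortest exonic length had a median of 0.20 and the group of longest -0.19. Across these genes, which are not independent replicates, the difference correlated with GC content (r = 0.335, rho = 0.398) and with log2 length (r = -0.216, rho = -0.239). After a correction of both in each library, 5779 genes were called, of which 3793 were among the 4951, and 88 of the 4951 had the opposite sign. The correction kept the counts of the cell cycle, DNA repair, ATF4 and immediate early lists within 1 gene (32, 15, 28 and 15). It ended the calls of 15 genes taken by the naming rule, among them FTL, the ferritin light chain gene (adjusted p = 0.0935), ERAP1, a peptidase of antigen presentation (adjusted p = 0.279), and TWIST2 (adjusted p = 0.154). The part of base composition in single genes was otherwise not tested.

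**Figure D5:**
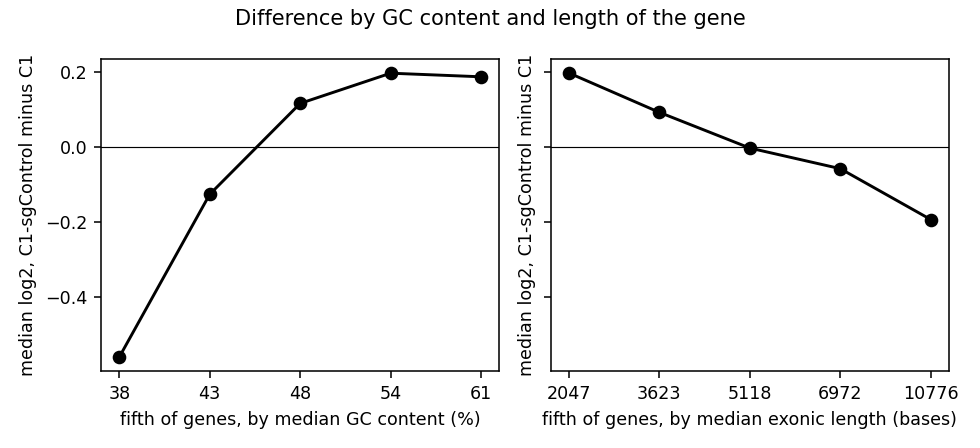
Median log2 difference of C1-sgControl minus C1 in 5 equal groups of 12660 genes, by GC content (left) and by exonic length (right), with the median of each group on the horizontal axis. The lowest GC group lies at -0.56 and the highest at 0.19, and the medians fall from 0.20 to -0.19 with length.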

How the data were processed

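RNA from cultured or sorted HMLER cells was sequenced in 16 libraries of 8 groups. Per the submitters' processing notes, the authors aligned reads to GRCh38 with STAR 2.7.1a and made the deposited counts per gene with featureCounts. The strand setting and annotation are not given in the sources used here, so overlapping and antisense genes cannot be separated. Of 60448 gene IDs, 56868 (94.1%) matched GENCODE 29, and the rest held no more than 0.0463% of any library.

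The main test was edgeR 4.0.16 (R 4.3.3) quasi-likelihood with TMM scaling, filterByExpr and a separate mean for each group, fitted to all 16 libraries with 8 residual degrees of freedom, with Benjamini-Hochberg adjustment over 18285 genes and calls at an adjusted p under 0.05. SE is the log2 difference over the root of F. In data simulated for this comparison (17312 genes), the share of changed genes found was 6% for 1.5-fold changes, 52% for 2-fold, 94% for 4-fold and 98% for 8-fold, with 8 unchanged genes called, and 0 called when nothing was changed. A simulated GC trend with no changed gene gave 3794 calls, and 0 after the GC correction. The simulated trend was a straight line in the same GC values that the correction fits, and no length trend was simulated. That 0 therefore does not show how well the correction works on the observed trend. The simulated trend spanned 1.36 on the log2 scale between the median GC contents of the lowest and highest GC groups, steeper than the 0.75 observed. The members and the 49 gene lists were chosen with earlier results of these data known, so list counts are descriptions and no list was tested as a set. Called genes were named by rule: the 10 highest and 10 lowest differences among genes reaching 5 CPM in either group (pseudogenes and clone-based names left out), and in each list the 4 largest differences among members reaching 1 CPM, plus 17 fixed genes (EED, KMT2D, CDH1, EPCAM, VIM, FN1, ZEB1, SNAI2, CDH2, KRT14, KRT5, KRT8, CD24, CD44, HRAS, CDKN1A and MDM2). Not every gene taken is printed, and exceptions are stated. Replicates were not duplicates (chi-square per degree of freedom 5.08 in C1 and 24.6 in C1-sgControl).

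Alternatives in edgeR were RLE and upper-quartile scaling, TMM without ribosomal protein and mitochondrial genes, no filter, fewer libraries and a replicate block. Each library was also left out in turn, and GC content and length were corrected (splines with 4 degrees of freedom, fitted library by library). The Wald test of DESeq2 1.42.0 was a separate alternative. Promoters came from the RefSeq table (GRCh38.p14).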

Additional observations from a re-analysis of the deposited data

How the results depend on the processing

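With each of the 4 libraries left out in turn, calls ranged from 2226 to 3538, against 4951, with 928 to 1460 higher and 1097 to 2078 lower. The arm left with 1 library was assumed to vary like the other groups. Fitting only the 10 epithelial libraries gave 3660 higher and 3458 lower (7118 calls of 17098 genes tested). Only the 4 compared libraries gave 3536 and 3745 (7281 calls of 15702). List counts from these fits are to be read beside those totals. Calls numbered 4975 with RLE scaling, 5107 with upper-quartile scaling, 5035 with TMM without ribosomal protein and mitochondrial genes, 5319 without the filter, 5779 with the GC and length correction and 5198 by DESeq2. The higher share of calls, 49.1%, was 43.5% with RLE and 54% with upper-quartile scaling, and over all alternatives it ran from 41.3% (without C1 replicate 1 or without C1-sgControl replicate 1) to that 54%. Replicate numbers did not pair the samples (correlation of replicate differences between the groups -0.0423), and the fit with a replicate block called 4863 genes, 2296 higher and 2567 lower. Of 197 genes named by the rule, 129 kept their side of the threshold under every alternative that gave a value. Of 2560 values, 200 lost a call, 14 gained 1 and 0 changed sign with a call. The cause of these changes was not tested, and the fits that leave 1 out differ both in the number of libraries and in which library is missing. In simulated data, where 50 genes were changed at each fold, 6% of the 1.5-fold differences were recovered. That share cannot be carried over to these data, where far more genes passed. Of the 4951 genes called, 2446 had a log2 difference of 1 or more, and the rest were smaller.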

Other observations

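Among genes of lipid synthesis and of the response to low oxygen, more fell than rose in C1-sgControl. Of 33 genes of cholesterol and fatty acid synthesis, 9 fell and 0 rose, with a median log2 difference of -0.37. The called share was 27.3%, near the 27.1% of all genes. FASN, fatty acid synthase, fell from 791 and 632 CPM to 315 and 311 CPM (log2 -1.19, adjusted p = 0.0023), and the elongase gene ELOVL6 from 57.5 and 52.5 CPM to 22.9 and 18.0 CPM (log2 -1.43, adjusted p = 0.0012). The 9 became 4 without C1 replicate 1, 5 without C1 replicate 2 and 4 without C1-sgControl replicate 2, and 16 with only the 10 epithelial or the 4 compared libraries. Hypoxia and glycolysis genes fell in 9 of 35 cases and rose in 4, a called share of 37.1%. CA9, the carbonic anhydrase induced by low oxygen, fell from 16.1 and 14.5 CPM to 2.69 and 2.53 CPM (log2 -2.55, adjusted p = 0.00059), and ANKRD37, another gene induced by low oxygen, rose from 3.52 and 3.93 CPM to 10.3 and 13.2 CPM (log2 1.66, adjusted p = 0.00019). The counts were 6 lower and 1 higher without C1 replicate 1 or C1 replicate 2, 7 and 2 without C1-sgControl replicate 1, 8 and 2 without C1-sgControl replicate 2, 17 and 8 with the 10 epithelial libraries and 16 and 3 with the GC and length correction. Of the 13 genes encoded in mitochondria, MT-ND6 rose (log2 1.49), and reads of MT-ND6 cannot be told from those of the opposite strand. Of 45 nuclear genes of the respiratory chain, 3 rose and 0 fell (median 0.11), a called share of 6.67% against 27.1% of all genes. Their median was 0.30 without C1-sgControl replicate 1 and -0.084 without C1-sgControl replicate 2. With the GC and length correction, 6 rose and 8 fell.

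Signalling genes split. Of 34 Wnt genes, 8 rose and 10 fell, a called share of 52.9% against 27.1% of all genes. LEF1, a factor through which beta-catenin acts, fell from 5.30 and 3.52 CPM to 0.671 and 1.07 CPM (log2 -2.33, adjusted p = 8.1e-05). The Wnt counts were 5 higher and 7 lower without C1 replicate 1, 4 and 7 without C1 replicate 2, 6 and 7 without C1-sgControl replicate 1 and 5 and 5 without C1-sgControl replicate 2. Of 17 Notch genes, 3 rose and 3 fell, a called share of 35.3%. HES1, a repressor induced by Notch, rose from 47.1 and 50.3 CPM to 218 and 234 CPM (log2 2.21, adjusted p = 0.0015). The ligand gene DLL1 fell (log2 -1.72, adjusted p = 0.00023). Among 12 ligands and receptors of the EGF receptor family, 2 rose and 3 fell, a called share of 41.7%. HBEGF, a ligand of the EGF receptor, rose from 13.3 and 12.6 CPM to 86.2 and 43.1 CPM (log2 2.32, adjusted p = 0.00018). The ligand gene EPGN fell from 10.4 and 9.12 CPM to 1.93 and 0.942 CPM (log2 -2.76, adjusted p = 0.00027). PEG10, an imprinted gene derived from a retrotransposon, fell from 665 and 593 CPM to 112 and 100.3 CPM (log2 -2.57, adjusted p = 3.6e-05). In each gene given with levels the libraries of the groups did not overlap.

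By chromosome, the share of genes called lower was highest on chromosome 4 (24.5% of 677, with 6.94% higher, median log2 -0.23). Among the autosomes and X, the share called higher was highest on chromosome 20 (21.2% of 481, with 10.2% lower, median 0.19). Over all genes tested, 13.3% were called higher and 13.8% lower. Whether the chromosome shares follow the GC content of the genes was not tested. Of 1407 pseudogenes tested, 125 rose and 48 fell (median 0.36), against 1943 and 2327 of 13993 protein-coding genes (median 0). In each direction a smaller share of pseudogenes than of all genes was called.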
